A study of Homo sapiens with 6 samples.

Results

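The genes of sterol and fatty acid synthesis were examined in SW1990 cells, a human pancreatic cancer line, as a module of 34 named genes. Each was taken as the table row whose HGNC symbol was on the list, which found 33 of the 34 among 20345 genes. The row for ACACA carries no HGNC symbol and was found by its gene name alone, so its values are given but it is left out of the counts. A non-targeting shRNA was present in the control cells and an shRNA against LRRC8A in the compared cells. LRRC8A is the subunit that every volume-regulated anion channel needs. Both groups had 3 RNA-seq libraries, called biological replicates by the series. The hairpins were delivered in pLKO.1 lentivirus and the cells were kept under puromycin as stable lines, so control cells also carry a vector and its selection. The labels place all 6 libraries in 1 batch and name 1 hairpin against LRRC8A. Whether each library had its own stable line is not stated, so the spread behind each p-value may be that of sister cultures.

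Cholesterol is built from acetyl-CoA through mevalonate, farnesyl pyrophosphate, squalene and lanosterol, and fatty acids are built from the same precursor by acetyl-CoA carboxylase and fatty acid synthase. Most of these enzyme genes are targets of the SREBP transcription factors, which SCAP escorts from the endoplasmic reticulum to the Golgi for cleavage when membrane sterol is low. INSIG proteins hold SCAP back when sterol is high. Pancreatic cancer cells make much of their own lipid, and serum lipoprotein in the medium is another source.

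Library totals ran from 37052641 to 42937612 counts. LRRC8A went from 75.6 ± 5.01 to 40.1 ± 2.03 CPM (counts per 1000000 of a library sized by TMM factors; mean ± SD over 3 libraries). Its fitted log2 fold change was -0.92 (edgeR adjusted p = 1.46e-08). Of 7 epithelial markers 6 had at least 1 CPM in every library, and their sum was 12799 to 13543 CPM in controls and 10224 to 11342 CPM with LRRC8A shRNA. The exception was KRT7, at a mean of 1.12 CPM in controls. KRT8 and KRT18, which made up most of that sum, passed the test as lower (log2 fold changes -0.29 and -0.38), and the other 5 epithelial markers did not pass. The part of this shift in the results below was not tested. Summed markers reached at most 4.56 CPM for fibroblasts, 4.09 for leukocytes, 0.432 for endothelium, 0.566 for adipocytes and 8.45 for hepatocytes, the last almost wholly SERPINA1. Of these 5 lists 1 hepatocyte, 1 fibroblast and 1 leukocyte marker had at least 1 CPM in every library. DCN, COL1A2, CD3E, KDR, APOA2, ADIPOQ and LEP had 0 counts in all 6 libraries. In bulk RNA, fewer cells with a transcript and less transcript per cell cannot be told apart.

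One control library stood apart in this module. In control replicate 3 the enzyme genes of cholesterol synthesis lay well above control replicates 1 and 2, which were close to each other, and the same was seen to a smaller degree in LRRC8A shRNA replicate 3. Comparisons between the groups are therefore also given without control replicate 3 for each role group and for most genes described singly. The plot of fitted log2 fold changes gives them for all 32 tested members. That setting keeps LRRC8A shRNA replicate 3, so medians of the role groups are also given without both libraries numbered 3. Replicate 3 also had the highest mitochondrial share of counts in both groups, 5.53% against 5.25% and 4.78% in controls and 6.53% against 5.00% and 4.55% with LRRC8A shRNA. Its total count in controls was 37565017, close to the 37318300 and 37052641 of the other two. The part of these measures in the module's levels was not tested.

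The start regions of 6 members are shown because SREBP and its partner factors are known to act on this pathway through sequences near gene starts. They are the 5 genes with the largest excess in control replicate 3 among those in the RefSeq promoter table (GRCh38.p14), and SREBF2. SREBF2 was added because its region matched TCACNCCAC, described below. Each run covers 250 bases before to 50 bases after an annotated start, 5′ to 3′ on the gene's strand, with the most upstream start taken where there are several. HMGCS1 lies at chr5:43313363-43313662 (minus strand), ACSS2 at chr20:34874739-34875038 (plus), HSD17B7 at chr1:162790452-162790751 (plus), INSIG1 at chr7:155297628-155297927 (plus), FDPS at chr1:155308616-155308915 (plus) and SREBF2 at chr22:41832855-41833154 (plus). Capitals mark matches on either strand to CCAAT, the NF-Y box, to GGGCGG, the Sp1 box, to the E-box CACGTG, and to TCACNCCAC, a core of the sterol regulatory element.
HMGCS1: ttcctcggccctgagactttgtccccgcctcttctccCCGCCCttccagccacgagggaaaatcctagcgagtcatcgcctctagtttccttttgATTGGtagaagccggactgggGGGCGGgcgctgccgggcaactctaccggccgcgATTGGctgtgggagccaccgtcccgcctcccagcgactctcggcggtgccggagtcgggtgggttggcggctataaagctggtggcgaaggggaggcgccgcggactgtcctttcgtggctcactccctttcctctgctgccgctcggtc
ACSS2: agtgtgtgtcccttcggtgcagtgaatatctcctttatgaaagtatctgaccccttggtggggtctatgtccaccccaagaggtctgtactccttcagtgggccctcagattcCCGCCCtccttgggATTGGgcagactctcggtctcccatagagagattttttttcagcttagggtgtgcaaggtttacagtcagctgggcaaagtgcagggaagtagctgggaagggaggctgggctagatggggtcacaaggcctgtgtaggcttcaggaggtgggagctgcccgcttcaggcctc
HSD17B7: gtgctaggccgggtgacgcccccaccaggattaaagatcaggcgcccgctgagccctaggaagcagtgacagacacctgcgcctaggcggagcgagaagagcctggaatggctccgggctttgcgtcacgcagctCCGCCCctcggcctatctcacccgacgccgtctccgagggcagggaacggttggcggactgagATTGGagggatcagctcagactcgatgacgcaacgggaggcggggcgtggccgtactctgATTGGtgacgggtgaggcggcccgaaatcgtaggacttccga
INSIG1: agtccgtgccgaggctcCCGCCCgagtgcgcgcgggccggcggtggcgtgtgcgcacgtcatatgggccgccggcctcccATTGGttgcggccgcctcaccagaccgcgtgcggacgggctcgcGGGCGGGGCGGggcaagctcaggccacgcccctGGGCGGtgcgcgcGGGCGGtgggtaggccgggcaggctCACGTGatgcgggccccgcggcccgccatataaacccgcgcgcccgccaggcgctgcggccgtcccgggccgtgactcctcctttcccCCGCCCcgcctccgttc
FDPS: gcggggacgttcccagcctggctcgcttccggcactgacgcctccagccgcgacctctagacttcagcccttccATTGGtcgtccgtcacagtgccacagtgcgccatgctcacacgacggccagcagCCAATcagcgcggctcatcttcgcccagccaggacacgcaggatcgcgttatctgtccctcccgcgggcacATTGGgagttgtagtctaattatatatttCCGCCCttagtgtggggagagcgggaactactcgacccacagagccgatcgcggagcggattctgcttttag
SREBF2: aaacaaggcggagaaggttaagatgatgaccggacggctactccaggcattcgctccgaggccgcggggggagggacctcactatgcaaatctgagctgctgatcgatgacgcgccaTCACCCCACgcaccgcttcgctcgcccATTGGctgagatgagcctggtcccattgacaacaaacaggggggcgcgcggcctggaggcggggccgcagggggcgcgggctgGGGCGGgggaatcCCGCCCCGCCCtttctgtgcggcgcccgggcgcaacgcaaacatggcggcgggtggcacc

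The SREBF2 region holds the only match to TCACNCCAC among the 30 of 34 members in that table (ACACA included), as TCACCCCAC, starting 133 bases before the annotated start. That word was found in 1.11% of the 10722 first start regions of tested genes in the table. With the looser TCACNCNAC, 4 of 30 members matched (FADS2, FDPS, HSD17B7 and SREBF2), against 2.55% of tested genes. CCAAT was present in 19 of 30 members (63.3%) and in 36.6% of tested genes, or 35.7% of all 27305 regions of this length. FDPS holds it 3 times, HMGCS1 and HSD17B7 2 times each. GGGCGG was present in 26 of 30 members (86.7%) and in 69.4% of tested genes. INSIG1 holds 6 matches to GGGCGG, a pair of them overlapping, and 1 of the 5 member matches to CACGTG, a word found in 9.76% of tested genes. These are letter matches in a short window, and nothing was measured at these sites.

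SW1990 cells expressed nearly the whole module. Per gene length, SCD, the desaturase that makes oleate, was the most abundant member at 1514 ± 185 TPM (transcripts per 1000000, deposited by the authors; mean ± SD, n = 3 controls). It was followed by FDPS, which makes farnesyl pyrophosphate, at 586 ± 125 TPM, FDFT1, squalene synthase, at 482 ± 65.1 TPM, and FASN, fatty acid synthase, at 405 ± 53.2 TPM. The 3 control values of SCD lay above all values of FDPS, but FDPS overlapped FDFT1, and FDFT1 overlapped FASN.

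Most of the other enzymes of cholesterol synthesis formed a middle range. HMGCS1 and IDI1, which act on either side of mevalonate, stood at 241 ± 73.7 and 239.9 ± 38.7 TPM, and their control values overlapped. DHCR7, MSMO1 and CYP51A1, which work on lanosterol and later sterols, had 197, 182 and 157 TPM. The kinases of the mevalonate arm were among the lowest, PMVK at 32.2 ± 1.09 TPM and MVK at 20.5 ± 3.38 TPM. Of the 33 neighbouring pairs in this order 23 overlapped, so the order is firm between ranges and not between neighbours. The order by FPKM was the same for all 34 genes.

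Desaturation of polyunsaturated fatty acids was the low end. FADS1 and FADS2, the delta-5 and delta-6 desaturases, stood at 8.74 ± 0.508 and 9.52 ± 1.87 TPM in controls. ELOVL5, an elongase of polyunsaturated chains, was listed with 4, 15 and 8 counts in controls and 6, 10 and 4 counts with LRRC8A shRNA, at most 0.25 TPM. This is low for a widely expressed gene, and whether the table's gene model misses reads of it was not tested. It was the single member by HGNC symbol that did not pass the filter on low counts, which left 32 tested. The elongases ELOVL1 and ELOVL6, for long saturated chains, had 103 ± 6.44 and 26.0 ± 4.08 TPM.

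**Figure D1:**
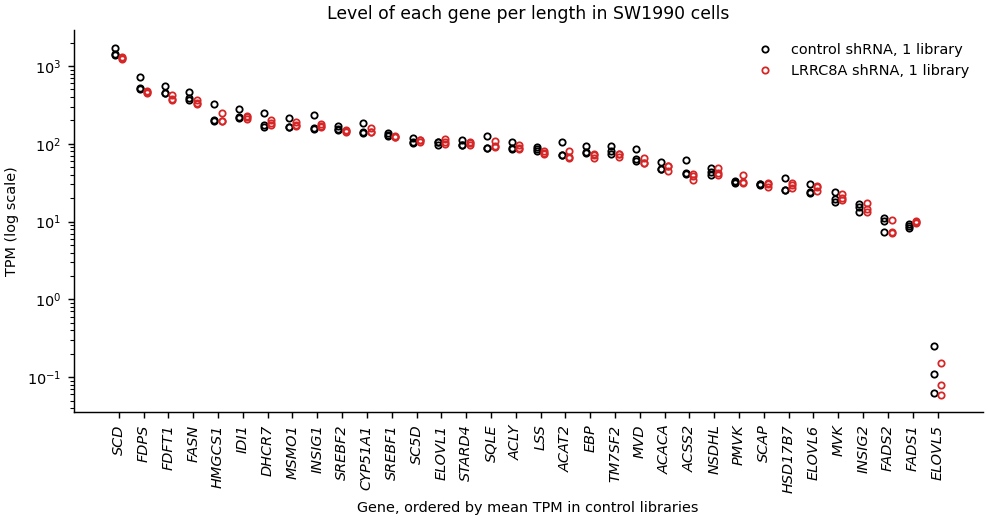
TPM of the 34 genes on a log axis, ordered by the control mean; each circle is 1 library, 3 control (black) and 3 LRRC8A shRNA (red). SCD lies at the top with a control mean of 1514 TPM, FADS1 and FADS2 near 9, and ELOVL5 at 0.25 or less in every library.

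To ask whether lower LRRC8A changed lipid synthesis genes, the 2 groups were compared over all 13551 tested genes. None of the 32 tested members passed (edgeR quasi-likelihood test, Benjamini-Hochberg adjusted p under 0.05), where 4.35% of all tested genes did, 1.77% higher and 2.58% lower. DESeq2 called 3 members lower, TM7SF2, EBP and SREBF2, which is 9.38% of them against 3.29% of the genes it tested. With replicate number as a block in edgeR, 7 members were called lower (FDFT1, LSS, TM7SF2, EBP, SREBF1, FASN and SCD). That is 21.9% of them against 3.02% of all tested genes. The labels do not say whether libraries of equal number were paired. At an edgeR adjusted p under 0.1 there were 5 members (SCD, TM7SF2, SREBF2, SREBF1 and LSS), all on the lower side, 15.6% against 4.21% of all tested genes. An unadjusted edgeR p under 0.05 was reached by 8 members, 25% against 18.3% of all tested genes. All 8 were on the lower side, where 9.62% of all tested genes lay. Of the 32 fitted log2 fold changes 27 were below 0, against 49.8% of all tested genes, and their median was -0.11, against 0.00 over all tested genes. Without control replicate 3 these figures were 14 of 32 and a median of 0.02, with 0 members called and a 2.53% share of all genes. Without both libraries numbered 3, a setting chosen after seeing the data, 20 of 32 were below 0 with a median of -0.04. The median was -0.19 without control replicate 1, -0.17 without control replicate 2 and -0.16 without LRRC8A shRNA replicate 3. It was -0.08 and -0.09 without LRRC8A shRNA replicates 1 and 2. The size of the module's negative tilt thus moved with the library left out. With 1 library left out, the median was above 0 only without control replicate 3. Several genes named below kept a negative value without the libraries numbered 3.

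Precision differed between members. The 95% confidence interval lay within a 1.5-fold change in either direction for 24 of the 32 members. For the other 8 the interval reached past that size, so such a change was not excluded. HMGCS1 had the widest interval, from -0.94 to 0.54 on the log2 scale. The standard error of the log2 fold change was at least 0.1 for 17 of 32 members and for 33.7% of all tested genes.

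The transcription factor genes lay near the threshold, with little spread between libraries. SREBF2, the regulator best known for cholesterol genes, had 410.0, 420.2 and 464 CPM in controls and 380.2, 397 and 387 CPM with LRRC8A shRNA. All 3 control values lay above all 3 others. Its log2 fold change was -0.15 (SE 0.05), with an edgeR adjusted p = 0.0671, and -0.09 without control replicate 3 (adjusted p = 0.327). It passed in DESeq2 (adjusted p = 0.0289) and with no filter on low counts (edgeR adjusted p = 0.0414). SREBF1, better known for fatty acid genes, had 222, 235 and 251 CPM in controls and 209.7, 212 and 219.5 CPM with LRRC8A shRNA. Again the groups did not overlap, by a small gap. Its log2 fold change was -0.14 (SE 0.05), with an edgeR adjusted p = 0.0932, and -0.09 without control replicate 3. SREBF1 shares exonic bases with RAI1 and SREBF2 with its antisense gene on the opposite strand, and the strand setting of the counting is not given in the sources used here. In GRCh38, SREBF1 lies on chromosome 17 (17810399 to 17837002, minus strand) and SREBF2 on chromosome 22 (41833079 to 41907308, plus strand).

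The escort and retention genes did not separate the groups. SCAP had 58.4, 59.4 and 60.6 CPM in controls and 57.9, 62.0 and 56.6 CPM with LRRC8A shRNA, a log2 fold change of -0.02 with a 95% interval of -0.12 to 0.09. INSIG1, itself a SREBP target, had 216, 221 and 318 CPM in controls and 227, 227 and 256 CPM with LRRC8A shRNA. Control replicate 3 was the highest of all 6 and the 2 lowest values were the other controls, so the fitted log2 fold change was -0.09 with all libraries and 0.12 without that one. INSIG2, an isoform that is not under the same sterol control, had 22.8, 18.1 and 21.0 CPM in controls and 23.8, 18.9 and 19.9 CPM with LRRC8A shRNA, and its values overlapped throughout. STARD4, a sterol carrier in the cytosol, ranged from 196 to 236 CPM, with a log2 fold change of -0.05. Over the 6 tested regulators the median was -0.07, 0.02 without control replicate 3 and 0.01 without both libraries numbered 3.

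Fatty acid synthesis genes had the most negative median of the 4 role groups, -0.26 over FASN, SCD, ACLY and ACSS2, and -0.15 without control replicate 3. With both libraries numbered 3 left out, the median was -0.18 and 4 of 4 values were below 0. SCD (chromosome 10, 100347124 to 100364834, plus strand) had 3897, 3958 and 4854 CPM in controls and 3409, 3580 and 3503 CPM with LRRC8A shRNA. The groups did not overlap. SCD had the smallest adjusted p of the module, 0.0593 (edgeR; log2 fold change -0.28, SE 0.07). It passed without control replicate 1 (edgeR adjusted p = 0.0352), and was -0.16 without control replicate 3 (adjusted p = 0.199). FASN (chromosome 17, 82078333 to 82098332, minus strand) had 1625, 1694 and 2064 CPM in controls and 1427, 1478 and 1634 CPM with LRRC8A shRNA. Its highest LRRC8A shRNA value lay just above its lowest control value, and its log2 fold change was -0.25 (SE 0.10, edgeR adjusted p = 0.273), and -0.13 without control replicate 3. With the replicate block FASN passed (edgeR adjusted p = 0.0101).

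ACSS2, which makes acetyl-CoA from acetate, had the most negative fitted value of all members, -0.39, with an SE of 0.21 (edgeR adjusted p = 0.438). Its control values spanned 62.3 to 93.4 CPM and its LRRC8A shRNA values 48.7 to 59.2 CPM, without overlap. Without control replicate 3 its value was -0.17. ACLY, which makes cytosolic acetyl-CoA from citrate, overlapped between groups, with a log2 fold change of -0.07 (SE 0.09). It had 0.03 without control replicate 3 and -0.03 without both libraries numbered 3. ACACA, acetyl-CoA carboxylase 1, matched by gene name only, had 228 ± 27.1 CPM in controls and 216 ± 18.4 CPM with LRRC8A shRNA (log2 fold change -0.08, edgeR adjusted p = 0.780).

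Among the 18 enzymes of cholesterol synthesis the median log2 fold change was -0.13, and 17 of 18 values were below 0, where 49.8% of all tested genes were. Without control replicate 3 the median was 0.04 and 7 of 18 values were below 0, against 48.0% of all tested genes. These 7 were ACAT2, MVD, FDPS, FDFT1, LSS, TM7SF2 and EBP. With both libraries numbered 3 left out, the median was -0.04 and 11 of 18 values were below 0, against 49.2% of all tested genes. LSS, which closes squalene epoxide to lanosterol, had 195, 201 and 209.7 CPM in controls and 173, 181 and 195 CPM with LRRC8A shRNA. The groups met at 195 CPM without overlapping, and LSS had a log2 fold change of -0.14 (SE 0.05, edgeR adjusted p = 0.0990), and -0.11 without control replicate 3. It passed without LRRC8A shRNA replicate 3 (edgeR adjusted p = 0.0336). TM7SF2, a sterol C14 reductase, had 64.5, 66.0 and 78.5 CPM in controls and 56.1, 60.9 and 59.9 CPM with LRRC8A shRNA. Its groups did not overlap, and its log2 fold change of -0.24 (SE 0.07) had an edgeR adjusted p = 0.0651. It passed in DESeq2 (adjusted p = 0.0301), with no filter on low counts (edgeR adjusted p = 0.0442) and without control replicate 1 (edgeR adjusted p = 0.0466), and had -0.14 without control replicate 3 (edgeR adjusted p = 0.234).

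EBP, a sterol isomerase, also kept its groups apart, at 48.5 to 64.9 CPM in controls and 43.7 to 48.2 CPM with LRRC8A shRNA, with a log2 fold change of -0.28 (SE 0.11, edgeR adjusted p = 0.225; DESeq2 adjusted p = 0.0432). It had -0.14 without control replicate 3. FDPS was the other sterol enzyme gene without overlap, from 300.1 to 435 CPM in controls and 269 to 291 CPM with LRRC8A shRNA. Its log2 fold change was -0.31 with an SE of 0.18 (edgeR adjusted p = 0.477), and -0.10 without control replicate 3. Its annotated pseudogene copies make its counts uncertain. Named pseudogenes are also annotated for CYP51A1, HSD17B7, SCD and FADS2. FDFT1 ran from 439 to 602 CPM in controls and 384 to 453 CPM with LRRC8A shRNA, with a log2 fold change of -0.29 (SE 0.15, edgeR adjusted p = 0.427) and -0.14 without control replicate 3. It passed with the replicate block (edgeR adjusted p = 0.00477) and without both libraries numbered 3 (edgeR adjusted p = 0.0315).

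HMGCS1 and SQLE, both known for their strong response to SREBP, gave no separation. HMGCS1, the cytosolic HMG-CoA synthase, had 356, 358 and 591 CPM in controls and 344, 348 and 442 CPM with LRRC8A shRNA. Replicates 1 and 2 of the 2 groups lay close together, and replicate 3 was the highest in each. The log2 fold change was -0.20 with an SE of 0.27, 0.09 without control replicate 3 and -0.04 without both libraries numbered 3. SQLE, squalene epoxidase, had 134, 133 and 194 CPM in controls and 139, 136 and 163 CPM with LRRC8A shRNA. The 2 lowest values were controls, and the fitted value went from -0.07 to 0.14 without control replicate 3. It was 0.05 without both libraries numbered 3.

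The remaining sterol enzyme genes overlapped between groups. The log2 fold changes were -0.24 for ACAT2, the cytosolic thiolase, -0.21 for the decarboxylase gene MVD and -0.14 for IDI1. They were -0.11 for CYP51A1, -0.10 for DHCR7, -0.06 for MVK, -0.06 for the methyl oxidase gene MSMO1, -0.05 for NSDHL, -0.02 for HSD17B7 and -0.02 for the desaturase gene SC5D. PMVK, at 0.08, was the one value above 0 in this group. Without control replicate 3, ACAT2 had -0.02 and MVD -0.02, and the other genes of this group lay above 0, from 0.00 (IDI1) to 0.19 (HSD17B7). With both libraries numbered 3 left out, ACAT2 (-0.10), MVD (-0.09), IDI1 (-0.04), CYP51A1 (-0.04) and NSDHL (-0.02) lay below 0. The other genes of this group lay above it. With all libraries the edgeR adjusted p-values of this group ran from 0.635 (MVD) to 0.962 (HSD17B7). For ACAT2, 2996 of 4299 exonic bases are shared with genes on the opposite strand, among them SOD2 and TCP1, so its counts are uncertain. The same holds for CYP51A1, which shares 2943 of 3584 exonic bases with AC000120.2 and AC000120.3 on its own strand and has 3 named pseudogenes. Of the 34 members, 14 share exonic bases with a gene on the opposite strand and 5 with a gene on the same strand.

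Elongases and front-end desaturases had fitted values of both signs. FADS2 had 14.4, 13.97 and 11.8 CPM in controls and 9.88, 10.8 and 12.7 CPM with LRRC8A shRNA, so 1 value of each group crossed into the other. Its log2 fold change was -0.26 (SE 0.11, edgeR adjusted p = 0.193), and -0.35 without control replicate 3. FADS1, its neighbour on chromosome 11, had a log2 fold change of 0.15 (SE 0.07, edgeR adjusted p = 0.274), with controls from 18.9 to 20.7 CPM and all LRRC8A shRNA values above them, from 21.4 to 23.3 CPM. The 2 genes share 490 exonic bases on opposite strands. ELOVL6 had 0.10 and ELOVL1 0.03, and both overlapped between groups. Without control replicate 3 they had 0.21 and -0.02. The median of the 4 genes was 0.07, 0.08 without that library and 0.06 without both libraries numbered 3.

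In all, the groups did not overlap in 9 of 32 members (28.1%), against 23.6% of all tested genes. In 8 of them LRRC8A shRNA was lower and in 1 (FADS1) higher, where 12.2% and 11.4% of all tested genes lay apart in those directions. For each of the 9 the exact two-sided permutation test of the 6 CPM values gave p = 0.1, the smallest that 3 against 3 allow. Groups that do not overlap always give this value, so it adds nothing to their separation.

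**Figure D2:**
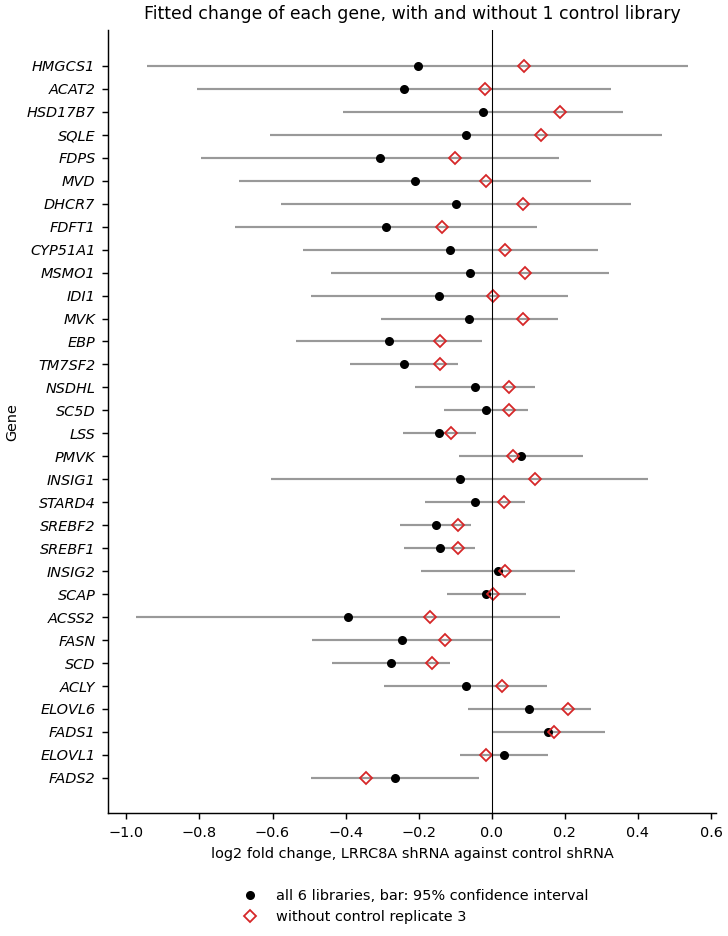
Fitted log2 fold change of the 32 tested genes, LRRC8A shRNA against control shRNA, with its 95% confidence interval (black), and the value refitted without control replicate 3 (red diamonds). With all libraries 27 points lie below 0, and without that library 14 do. These are SCD, FASN, ACSS2, LSS, TM7SF2, EBP, FDFT1, FDPS, ACAT2, MVD, SREBF1, SREBF2, FADS2 and ELOVL1, the last above 0 with all libraries.

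Control libraries also differed from each other in this module. Control replicate 3 was the highest of the 3 controls in 27 of 32 members (84.4%), where this held for 34.8% of all tested genes, and the lowest in 3 members, against 35.3%. Measured against the mean of control replicates 1 and 2, its median excess was 0.31 on the log2 scale over the members and 0.00 over all tested genes. Between control replicates 1 and 2 the members' median difference was 0.02. An excess of at least 0.25 was found in 20 of 32 members, against 6.24% of all tested genes. Among the 9587 tested genes with a mean of at least 10 CPM, ranked by this excess, 18 members were in the first 100 and 23 in the first 500.

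Sterol enzymes carried most of it, with a median excess of 0.40 over 18 genes. Over all tested members HMGCS1 led at 0.73, followed by ACSS2, of the fatty acid synthesis group, at 0.58 and ACAT2 at 0.57. INSIG1, a regulator, HSD17B7 and SQLE had 0.54 each and FDPS 0.53. The early and late ends of the sterol route both took part, with MVD at 0.50 and DHCR7 at 0.49. LSS (0.08), SC5D (0.17) and PMVK (-0.07) had the smallest values of the 18. Summed over these enzymes, control replicate 3 held 3889 CPM, against 2827 and 2885 CPM in control replicates 1 and 2. Over all tested members, the abundant SCD and FASN among them, the sums were 12640 CPM against 9886 and 10110 CPM.

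Apart from INSIG1, the regulators and the front-end desaturases lay below the sterol enzyme median of 0.40 in that library. SREBF1 and SREBF2 had an excess of 0.14 and 0.16, STARD4 of 0.22, SCAP of 0.04 and INSIG2 of 0.05, beside the 0.54 of INSIG1. FASN and SCD had 0.31 each, ACACA 0.29, ELOVL6 0.29 and ACLY 0.27. FADS1 had 0.03, while FADS2 (-0.26) and ELOVL1 (-0.16) were lower in control replicate 3 than in the other controls. Members with the largest excess therefore included both arms of the pathway, but not the genes of the transcription factors themselves.

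LRRC8A shRNA replicate 3 was likewise the highest of its group in 24 of 32 members (75%), against 34.1% of all tested genes, and both libraries numbered 3 were highest in 22 members (68.8%, against 13% of all tested genes). The median excess there was smaller, 0.13 on the log2 scale, with 0.35 for HMGCS1, 0.25 for SQLE and 0.00 for SCD. At least 0.1 was reached by 22 members (68.8%), against 23.1% of all tested genes. Across the 32 members the excess in the 2 libraries had a Pearson r of 0.54 and a Spearman rho of 0.53, and across all 13551 tested genes 0.02 and 0.08. These are correlations across genes, which are not independent and share libraries and their scaling. Nothing in the labels ties the number 3 to a shared day or culture. Leaving out both libraries numbered 3, edgeR called 2 members lower, FDFT1 (-0.21, adjusted p = 0.0315) and FADS2 (-0.45, adjusted p = 0.0338), which is 6.25% of the 32 against 1.6% of all tested genes called lower.

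**Figure D3:**
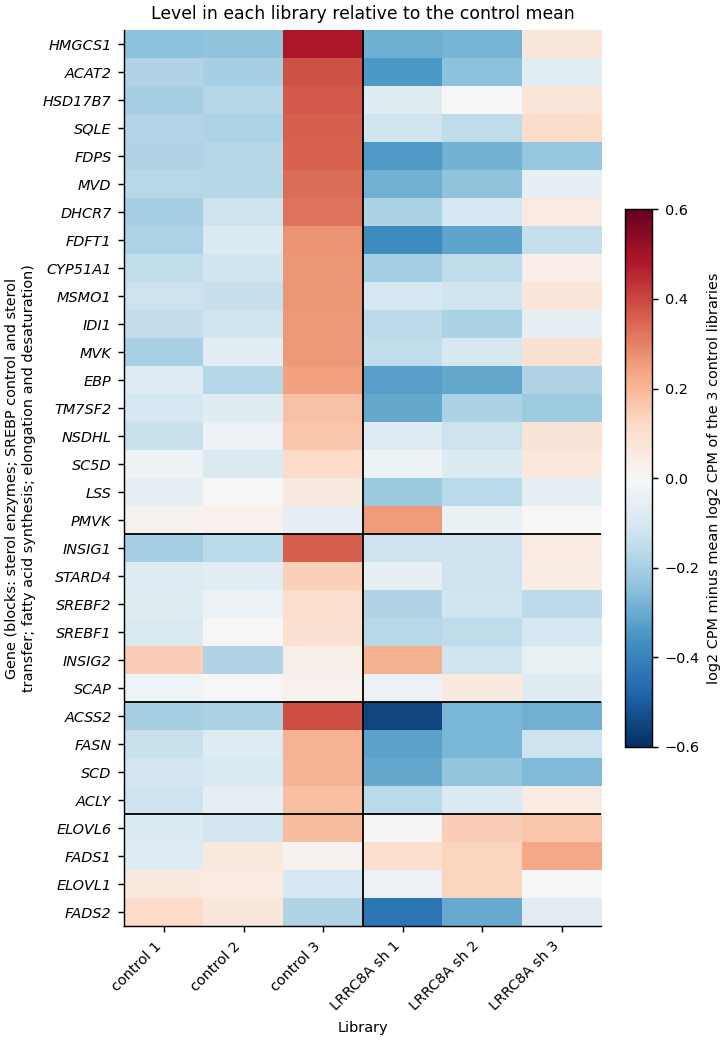
Level of the 32 tested genes in each library as log2 CPM minus the mean of the 3 control libraries, in blocks by role; red is above that mean and blue below. The column of control replicate 3 is red through most of the sterol block, where HMGCS1 is the darkest, and pale for SCAP, SREBF1 and LSS.

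**Figure D4:**
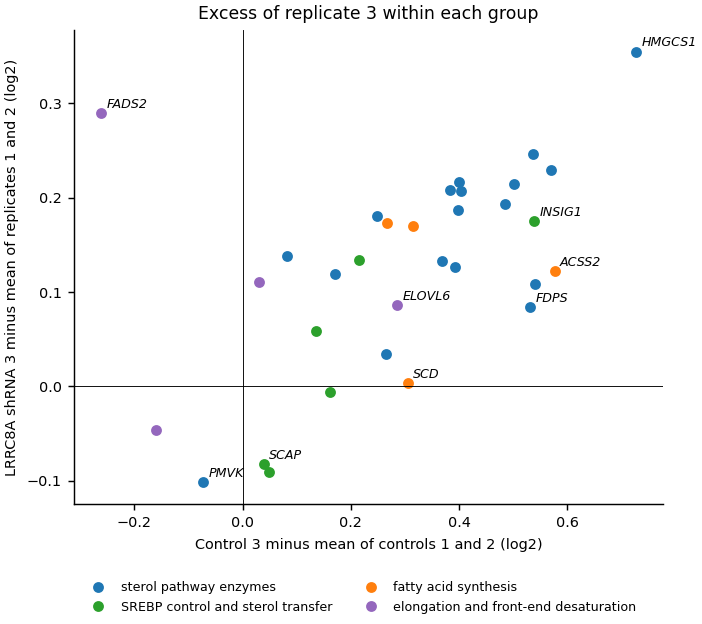
Excess of replicate 3 over the mean of replicates 1 and 2, on the log2 scale, in controls (horizontal) and with LRRC8A shRNA (vertical); each point is 1 of the 32 tested genes, coloured by role. HMGCS1 lies at the upper right (0.73 and 0.35), SCAP and PMVK near the lower left, and FADS2 is higher in LRRC8A shRNA replicate 3 (0.29) and lower in control replicate 3 (-0.26).

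Neighbouring parts of lipid metabolism were read from 7 further lists. AGPAT5, an acyltransferase of phosphatidic acid synthesis, was the only gene of these lists that passed in edgeR. It fell from 109 ± 1.69 CPM in controls to 96.3 ± 5.88 CPM (fitted log2 fold change -0.18 with an SE of 0.05, edgeR adjusted p = 0.0389). When libraries were left out one at a time it missed the threshold in 5 of 6 cases (adjusted p 0.0947 to 0.143), LRRC8A shRNA replicate 3 being the exception. In glycerolipid synthesis this was 1 of 15 tested genes (6.67%), near the 4.35% of all tested genes called. AGPAT5 passed in DESeq2 (adjusted p = 0.0224), with no filter on low counts (edgeR adjusted p = 0.0248) and with the replicate block (edgeR adjusted p = 0.0287). In limma on FPKM it did not pass (adjusted p 0.272 to 0.354).

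The isoprenoid branch, which draws on farnesyl pyrophosphate for prenylation and dolichol, had 0 of 14 called, with PDSS2 (-0.21, edgeR adjusted p = 0.123) nearest. SREBP processing and sterol-regulated degradation had 0 of 11 called, with TMEM97, a sterol-responsive membrane protein gene, at -0.15 (edgeR adjusted p = 0.101) and ERLIN2 at -0.09 (edgeR adjusted p = 0.341). Cholesterol transport, storage and efflux had 0 of 16 called. There GRAMD1B, a sterol transfer protein gene of low abundance, had 0.95 (SE 0.28, edgeR adjusted p = 0.0662) and NPC2, which moves cholesterol out of lysosomes, -0.17 (edgeR adjusted p = 0.0786).

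LXR and its partners, which respond to oxysterols, had 0 of 10 called, with RXRB at -0.17 and NR1H2 at -0.11 nearest. The other enzymes of fatty acid synthesis and elongation had 0 of 18 called, with MCAT at -0.18 and OXSM at -0.19, both of the mitochondrial route. Fatty acid oxidation had 0 of 22 called and 19 values below 0 (86.4%, against 49.8% of all tested genes), with a median of -0.08. Without control replicate 3 it also had 19 values below 0, with a median of -0.09. HADHB, a subunit of the trifunctional protein, had -0.15 (edgeR adjusted p = 0.0631) and CPT1A, the carnitine acyltransferase of mitochondrial entry, -0.25 (edgeR adjusted p = 0.0741).

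The excess in control replicate 3 was small in the medians of these lists. Their median excess lay between -0.04 (fatty acid oxidation) and 0.06 (SREBP processing, and other fatty acid synthesis and elongation enzymes). The sterol enzymes had 0.40 and the fatty acid synthesis genes 0.31. Single genes of the related lists ranged more widely. The highest reached 0.49 in glycerolipid synthesis, 0.36 in cholesterol transport and 0.27 in other fatty acid synthesis and elongation. The lowest, in cholesterol transport, was -0.49.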

How the data were processed

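RNA-seq of 6 SW1990 libraries was used, 3 per shRNA group. HISAT2 2.2.1, StringTie 2.2.3 and fastp 0.23.2 are named in the submitters' processing notes. The builds GRCh38 and mm10 are named there without a role, and the counting program is not given in the sources used here. The deposited table holds whole-number read counts per gene, and FPKM and TPM values that the authors normalized for length and depth. Counts were filtered with filterByExpr, scaled by TMM factors and compared with edgeR 4.0.16 (robust quasi-likelihood F-test, two-sided, R 4.3.3). Adjustment was by Benjamini-Hochberg over 13551 genes, with a threshold of 0.05. CPM are counts per 1000000 of the scaled library. Deviations of replicate 3 used log2(CPM + 0.5). Intervals rest on the edgeR standard error and its degrees of freedom.

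The members, their lists and these tests were chosen with earlier results of these data known, so no p-value was adjusted over the list alone and no list test was made. Values per library are given for SREBF1, SREBF2, SCAP, INSIG1, INSIG2, FASN, SCD, SQLE, HMGCS1, LSS and the 6 members with the smallest adjusted p. From each related list the genes past the threshold are named, or else the 2 with the smallest adjusted p; 1 such gene of the isoprenoid list is not reported here. The word TCACNCNAC was an alternative to TCACNCCAC. Gene positions are from GENCODE 29 (GRCh38), whose Ensembl identifiers matched 33 of the 34 genes, and start regions are from RefSeq. The labels' replicate numbers were not used to pair libraries, except in the replicate block. Alternatives were DESeq2 1.42.0, its size factors in edgeR, no filter, a replicate block, each library left out, an adjusted p of 0.01, and limma 3.58.1 on log2(FPKM + 1) or log2(FPKM + 0.1). The edgeR step was tested on simulated data.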

Additional observations from a re-analysis of the deposited data

How the results depend on the processing

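The count of changed genes, 590 over all tested genes, was 246 to 504 with 1 library left out, 157 with limma on log2(FPKM + 1), 154 with a pseudocount of 0.1, 18 without the FPKM filter and 222 at an adjusted p of 0.01. Members called lower, 0 in the edgeR result, were 3 with DESeq2, 2 with no filter on low counts, 2 without both libraries numbered 3, and 0 to 2 with 1 library left out. With the replicate block 7 were called lower (FDFT1, LSS, TM7SF2, EBP, SREBF1, FASN and SCD), 21.9% of the members against 3.02% of all tested genes, and 671 genes in all, with 27 of 32 members below 0 and a median of -0.09. The labels do not say whether libraries of equal number were paired. Over all tested genes, deviations from the group mean correlated between libraries of equal number at 0.05, -0.04 and 0.02. Control replicates 1 and 3 correlated best with the library of equal number, but control replicate 2 with LRRC8A shRNA replicate 3. Correlations over all genes cannot show whether a smaller set of genes shared an effect, and this was not tested. No member was called higher in any of these settings, and the knockdown of LRRC8A passed in all of them. Genes of the related lists called lower, 1 in the edgeR result, were 0 in each limma setting, at an adjusted p of 0.01 and without both libraries numbered 3, and 0 to 1 with 1 library left out. With no filter 1 gene of these lists was called higher, where the edgeR result had 0.

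With 1 library left out, log2 fold changes that crossed 0 ranged from -0.33 to 0.087 for HMGCS1, -0.16 to 0.085 for MVK, -0.020 to 0.14 for PMVK, -0.22 to 0.0037 for IDI1, -0.17 to 0.14 for SQLE, -0.19 to 0.036 for CYP51A1, -0.13 to 0.090 for MSMO1, -0.11 to 0.046 for NSDHL, -0.13 to 0.19 for HSD17B7, -0.061 to 0.048 for SC5D, -0.20 to 0.087 for DHCR7, -0.054 to 0.012 for SCAP, -0.19 to 0.12 for INSIG1, -0.090 to 0.093 for INSIG2, -0.091 to 0.034 for STARD4, -0.13 to 0.028 for ACLY, -0.018 to 0.066 for ELOVL1 and -0.14 to 0.031 for ACACA. Without both libraries numbered 3 the sign also changed for MVK (0.0095), SQLE (0.048), MSMO1 (0.024), HSD17B7 (0.15), SC5D (0.0060), DHCR7 (0.018), SCAP (0.028), INSIG1 (0.057) and ELOVL1 (-0.00040). On log2(FPKM + 1), with or without the filter, it changed for MVK (0.0065), NSDHL (0.0018), HSD17B7 (0.023) and SC5D (0.017), and with a pseudocount of 0.1 they had 0.0079, 0.0019, 0.026 and 0.017. None of these values passed the test on either side. The causes of these differences between settings were not tested.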
